A study of Mus musculus with 9 samples.

Results

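The genes described here encode proteins of the pre-mRNA splicing machinery and its regulators, chosen by symbol from a table of 55401 entries. They are all entries whose symbol begins with Snrp or Hnrnp, or with Srsf, Sf3a, Sf3b, Prpf or Lsm followed by a number, leaving out symbols that end in -ps. The rule uses symbols alone. It gave 79 genes: 13 Snrp, 11 Srsf, 9 Sf3, 20 Hnrnp, 13 Prpf and 13 Lsm genes. Of these, 78 had a mean over all libraries of 1 or more FPKM (fragments scaled to transcript length and library size) and were tested. The exception was Srsf12, a little-expressed SR-related gene, at a mean of 0.153 FPKM and between 0.0754 and 1.56 CPM in the 9 libraries. One of the 79, Snrpert, is annotated as a processed pseudogene.

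The libraries were made from colonic tissue of mice whose genotype the labels give as WT, in 3 groups of 3. A chow group and a high-fat diet group both carry AOM/DSS in their titles, the usual short form of azoxymethane with dextran sulfate sodium, which induces colitis and colon tumours. The third group received berberine, a plant alkaloid whose action against tumours the series addresses. The labels state neither the diet of the berberine group nor whether it had AOM/DSS, and nothing says that the 3 libraries of a group came from separate animals, so the p-values measure only the spread between these libraries.

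Introns are cut from pre-mRNA by the spliceosome, which assembles on each transcript from small nuclear ribonucleoproteins (snRNPs), particles of a short U RNA and its proteins. Sm proteins form a ring around the U1, U2, U4 and U5 RNAs and the related Lsm proteins a ring around U6, while SF3A and SF3B let the U2 snRNP hold the branch point and the Prpf proteins build the U4/U6.U5 tri-snRNP and drive later steps. SR proteins mostly promote and hnRNPs often restrain the use of nearby splice sites, and both also act in export, stability and translation of mRNA. Cells that grow and divide make much of this machinery, and in the colon such cells lie in the crypts and in tumours.

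Library totals ran from 51961764 to 69007117 estimated counts, and TMM scaling factors from 0.908 to 1.07. In tissue RNA, fewer cells of a type and less RNA per cell cannot be told apart, and the summed levels of marker lists moved with the groups. The 16 cell division markers summed to between 582 and 1041 CPM in chow, 1178 and 1252 CPM in high-fat diet and 639 and 867 CPM in berberine libraries. Under high-fat diet 5 of the 16 rose (31.2%, against 15.2% of all tested genes). DESeq2 and limma on log2(FPKM + 1) each called 8 higher, where they called 2626 and 2956 of all 14506 tested genes higher. The 9 epithelial markers, present in every group, summed to 12061 to 13357 CPM in chow, 9219 to 12012 in high-fat diet and 11269 to 13518 in berberine libraries. Smooth muscle markers (10 genes) summed to 9981 to 13893, 1669 to 7843 and 4933 to 5879 CPM, with 5 lower under high-fat diet (50%, against 16.6% of all tested genes). T cell markers (8 genes) summed to 63.0 to 136, 35.9 to 38.6 and 112 to 146 CPM, and B cell markers (8 genes) to 397 to 608, 144 to 275 and 558 to 1050 CPM. Of 6 tested T cell markers 5, and of 8 B cell markers 8, were lower under high-fat diet (83.3% and 100%, against 16.6% of all tested genes). Enteric neuron and glia markers (9 genes) summed to 115 to 163, 37.6 to 82.8 and 82.1 to 104 CPM in the same order of groups. Of the 6 tested, 3 were lower under high-fat diet (50%, against 16.6% of all tested genes). Striated muscle markers stood at 1835 CPM in chow replicate 3 against 58.9 at most elsewhere, and adipocyte markers at 856 and 743 CPM in berberine replicates 1 and 2 against 192 at most elsewhere. In berberine against high-fat diet 6 of 6 tested T cell and 8 of 8 B cell markers were higher, against 15.8% of all tested genes. So were 6 of 7 tested adipocyte markers, of which limma on log2(FPKM + 1) called 1. There 3 of 16 cell division markers were lower (18.8%, against 14.9%), as were 1 of 9 epithelial and 1 of 6 tested enteric markers. All 16 cell division estimates were negative, with a median log2 fold change of -0.77. DESeq2 and limma each called 9 of these 16 lower, where they called 2693 and 2703 of all 14506 tested genes lower. No marker of these lists was at 0 in all libraries, and their part in the differences below was not tested.

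The first comparison, high-fat diet against chow, addressed the effect of diet in AOM/DSS mice. Of the 78 tested genes 39 rose and 1 fell (edgeR adjusted p under 0.05), and the median log2 fold change was 0.49. Over all 14506 tested genes 15.2% rose and 16.6% fell, with a median of 0.00, and among the 8742 genes with a mean of at least 20 CPM 17.1% rose. The splicing genes that rose did so by modest amounts, from 0.38 to 1.19 on the log2 scale, and 54 of the 78 had groups that did not overlap, against 45.7% of all tested genes. The families differed in how many members rose: 11 of 13 Snrp genes (the remaining ones being Snrpert, not called, and Snrpn, which fell), 6 of 9 Sf3, 5 of 10 Srsf, 6 of 13 Prpf, 8 of 20 Hnrnp and 3 of 13 Lsm genes. Their median log2 fold changes were 0.70, 0.53, 0.32, 0.45, 0.37 and 0.53 in the same order. Without 1 library the Srsf count was 2 (chow replicate 1, chow replicate 2 or high-fat diet replicate 2) or 3 (high-fat diet replicate 3), and the Hnrnp count 5 (high-fat diet replicate 2 or 3). Differences between families were not tested. With library totals in place of TMM scaling the median of all tested genes moved to 0.13, 48 members rose and 0 fell, against 19.4% (2807) and 13% (1890) of all tested genes.

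The berberine group was then compared with the high-fat diet group, to ask how expression differed with berberine. Here 34 of the 78 genes fell and 0 rose, with a median log2 fold change of -0.41. Over all tested genes 14.9% fell and 15.8% rose, with a median of -0.01, and among genes with a mean of at least 20 CPM 15.9% fell and 17.9% rose. With library totals 41 members fell and 0 rose, against 18.5% (2689) and 12.8% (1864) of all tested genes. By family 12 of 13 Snrp genes fell, 5 of 9 Sf3, 3 of 10 Srsf, 5 of 13 Prpf, 5 of 20 Hnrnp and 4 of 13 Lsm genes. Without 1 library the Prpf count stayed at 4 or 5 and the Hnrnp count at 4 to 7. The Snrp, Sf3, Srsf and Lsm counts rested on single libraries. The Snrp count was 5 without berberine replicate 2 or high-fat diet replicate 1 and 7 without high-fat diet replicate 3. The Sf3 count was 1 without berberine replicate 2, 2 without berberine replicate 3 and 3 without berberine replicate 1 or any high-fat diet library. The Srsf count was 0 without berberine replicate 2, berberine replicate 3 or high-fat diet replicate 3, and 1 without any other berberine or high-fat diet library. The Lsm count was 1 without berberine replicate 2 or high-fat diet replicate 1 and 2 without high-fat diet replicate 3 or chow replicate 1. Neither DESeq2 nor an unadjusted p under 0.05 gave a gene that rose. Groups did not overlap for 46 of the 78 genes, against 50.4% of all tested genes, a share near the background. The number that fell depended on single libraries: it was 20 without high-fat diet replicate 1, 21 without high-fat diet replicate 3 and 15 without berberine replicate 2. It was also 20 with no filter on low values, which adjusts over 34440 genes. Both comparisons use the same 3 high-fat diet libraries, so a high value there enters both, and below the values of each are given side by side.

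**Figure D1:**
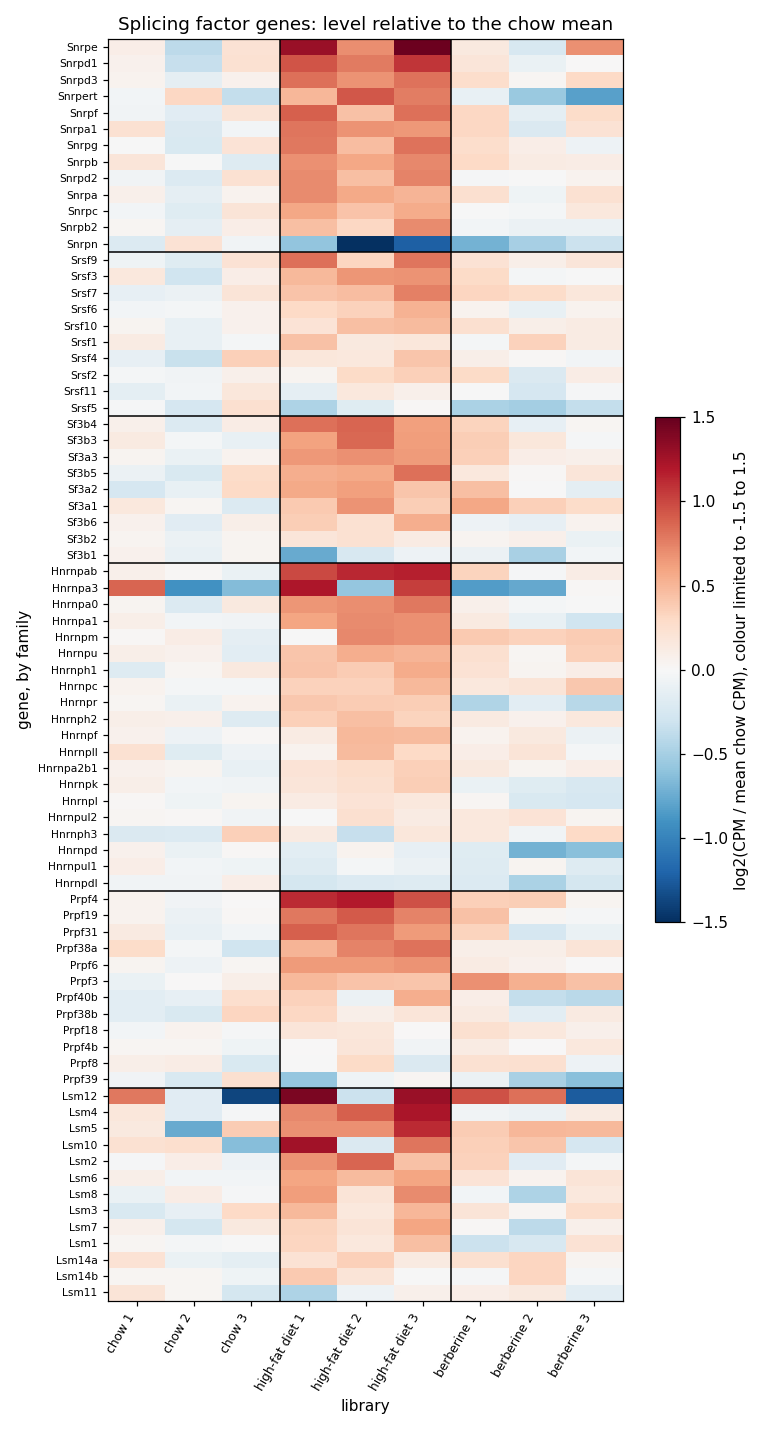
Log2 ratio of 77 of the 78 tested splicing genes (rows, grouped by family) to its chow mean in each of the 9 libraries (columns), by colour. Most rows are above their chow mean in the 3 high-fat diet columns, where the median over the 78 genes was 0.41 to 0.52, and near it in the berberine columns, where the median was 0.01 to 0.15.

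The median over the 78 genes, relative to each gene's chow mean, was 0.04, -0.09 and 0.03 in the chow libraries, 0.43, 0.41 and 0.52 in the high-fat diet libraries and 0.15, 0.01 and 0.04 in the berberine libraries on the log2 scale. The high-fat diet libraries thus lay apart from the other 6 and close to each other. Within groups these genes varied little, with a median SD of 0.17 on the log2 scale against 0.25 for all tested genes. These sets were not matched for expression level. By level per length, the families ranked by their median gene at 33.6 FPKM for Hnrnp, 30.7 for Srsf, 24.4 for Snrp, 18.7 for Sf3, 9.996 for Lsm and 7.84 for Prpf genes. The highest single gene was Hnrnpab at a mean of 186 FPKM, and the lowest tested one Lsm11 at 2.18 FPKM.

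**Figure D2:**
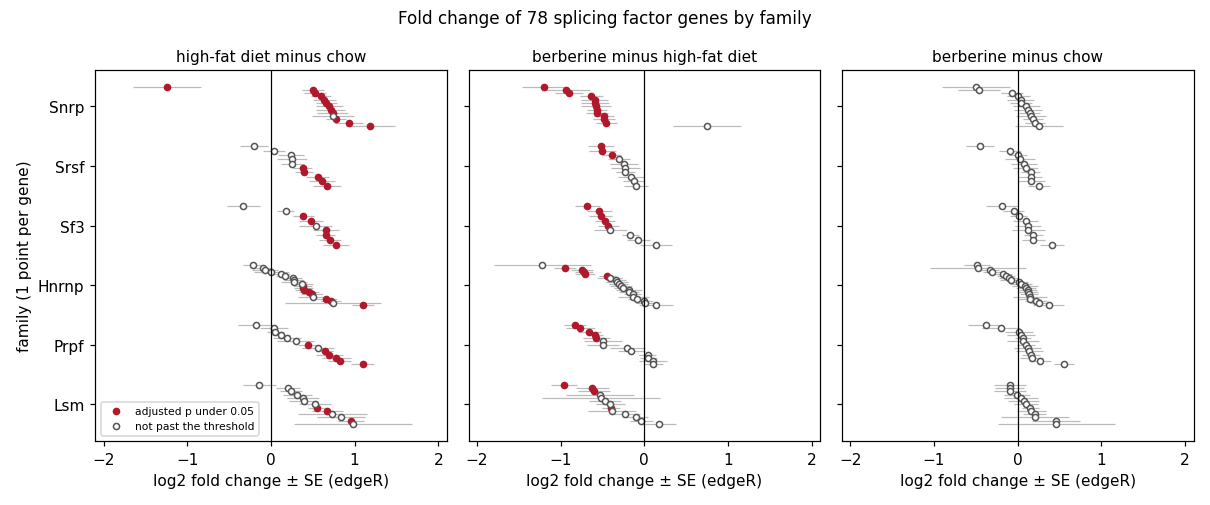
Log2 fold change ± SE (edgeR) of each of the 78 tested genes, 1 point per gene, by family (rows) and comparison (3 panels), with genes at an adjusted p under 0.05 filled. Filled points lie above 0 in the first panel except Snrpn and below 0 in the second, which shares the high-fat diet libraries with the first, and the third panel has none.

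The Sm proteins are the shared core of the U1, U2, U4 and U5 snRNPs, loaded onto the RNA as subcomplexes by the SMN complex. All 7 genes of the ring itself rose under high-fat diet and fell in the berberine group relative to it. Snrpb, which encodes SmB and was the highest Snrp gene by length, stood at 121, 106 and 93.0 CPM in the chow libraries, 171, 159.7 and 176 in the high-fat diet and 132, 116 and 115 in the berberine libraries. All 3 high-fat diet values lay above all others, with a log2 fold change of 0.66 ± 0.12 against chow (edgeR adjusted p = 0.00483) and -0.48 ± 0.12 for berberine against high-fat diet (adjusted p = 0.0187). Snrpd1, for SmD1, had 44.6, 33.6 and 49.8 CPM in chow, 81.9, 73.1 and 89.4 in high-fat diet and 48.4, 39.96 and 42.8 in berberine libraries. It rose by 0.93 ± 0.17 (edgeR adjusted p = 0.00402) and gave -0.90 ± 0.17 in the second comparison (adjusted p = 0.00478), again with no overlap of the high-fat diet group with either other group.

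SmD2 and SmD3 followed the same order of groups. Snrpd2 had 68.6, 61.5 and 82.9, 116, 97.4 and 119 and 69.9, 70.6 and 73.4 CPM in chow, high-fat diet and berberine libraries, and Snrpd3 (GRCm38 chromosome 10, 75517551 to 75537381, plus strand) had 56.6, 49.7 and 57.1, 96.9, 86.7 and 95.6 and 65.6, 55.4 and 66.9 CPM. Every high-fat diet library exceeded the other 6 for each of this pair. The log2 fold changes against chow were 0.64 ± 0.14 for Snrpd2 and 0.77 ± 0.12 for Snrpd3 (edgeR adjusted p = 0.00873 and 0.00217), and those of berberine against high-fat diet -0.63 ± 0.14 and -0.57 ± 0.12 (adjusted p = 0.00920 and 0.00792). Snrpf and Snrpg, for the small SmF and SmG proteins, rose by 0.74 and 0.70 under high-fat diet and fell by 0.58 and 0.59 in the second comparison on the log2 scale.

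**Figure D3:**
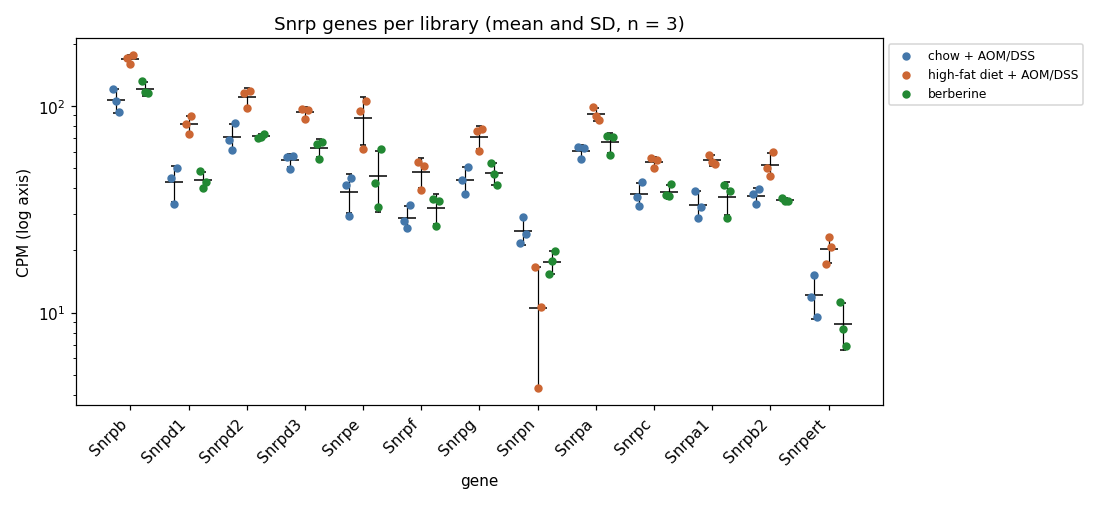
CPM of the 13 Snrp genes in each library on a log axis, with group means and SD (n = 3). For all genes but Snrpn the 3 high-fat diet points lie above the chow points, and for Snrpn they lie below them, from 4.29 to 16.6 CPM against 21.7 to 29.0 in chow.

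Snrpn, named after its values were seen, encodes SmN, a close relative of SmB made mainly in brain from an imprinted locus (GRCm38 chromosome 7, 59982495 to 60140219, minus strand), and its exons overlap those of Snurf on the same strand. It had 21.7, 29.0 and 24.1 CPM in chow, 16.6, 4.29 and 10.7 in high-fat diet and 15.3, 17.7 and 19.9 in berberine libraries. All high-fat diet values lay under the chow values but overlapped those of berberine. The log2 fold change was -1.24 ± 0.41 against chow (edgeR adjusted p = 0.0469), a call kept in 6 of 18 alternative analyses (adjusted p from 0.00991 to 0.116), and 0.74 ± 0.41 for berberine against high-fat diet (adjusted p = 0.197). Per length, Snrpn made up 14.1%, 20.03% and 19.2% of the sum of Snrpn and Snrpb FPKM in the chow libraries, 8.14%, 2.40% and 5.26% in the high-fat diet and 9.61%, 12.2% and 13.7% in the berberine libraries. The pair was chosen after its values were seen and its share was not tested.

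Snrpe, for SmE, and the processed pseudogene Snrpert are described together because reads of one can be taken for the other. Snrpert is a single exon that matches the Snrpe coding sequence at 98.9% of positions in the GENCODE transcripts of GRCm38. Of the 130 windows of 150 bases, the read length, in Snrpert, 28 are identical to Snrpe. How the authors' counting divided such reads is not given in the sources used here, so the split between these genes is uncertain.

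Snrpe had 41.3, 29.2 and 44.8 CPM in chow, 94.5, 62.2 and 106 in high-fat diet and 42.5, 32.5 and 62.0 in berberine libraries. The high-fat diet values were all the highest, although the lowest of them, 62.2 CPM, was close to berberine replicate 3 at 62.0 CPM. Snrpe rose by 1.19 ± 0.29 against chow (edgeR adjusted p = 0.0150) and gave -0.94 ± 0.29 in berberine against high-fat diet (adjusted p = 0.0377). Snrpert had 11.8, 15.1 and 9.52, 17.1, 23.2 and 20.7 and 11.3, 8.29 and 6.92 CPM in the same groups. Its log2 fold change was 0.74 ± 0.25 against chow, short of the threshold (edgeR adjusted p = 0.0521), and -1.20 ± 0.25 for berberine against high-fat diet (adjusted p = 0.00851), the call with the lower p of the pair. For both genes every high-fat diet library stood above the other 6.

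U1 recognises the 5' splice site and U2 the branch point, and each has proteins of its own beside the Sm ring. Both U1 genes and both U2 genes of the Snrp family rose under high-fat diet and fell in berberine against high-fat diet. The U1 gene Snrnp70, read below with the other spliceosome subunits, was not called by edgeR in either comparison. Snrpa, for the U1 protein that binds a loop of its RNA, had 63.5, 55.2 and 62.6 CPM in chow, 99.0, 89.6 and 85.8 in high-fat diet and 71.6, 57.8 and 70.6 in berberine libraries, with log2 fold changes of 0.60 ± 0.13 (edgeR adjusted p = 0.00802) and -0.46 ± 0.13 (adjusted p = 0.0250). The high-fat diet group did not overlap with either other group. Snrpc, for the U1 protein that steadies its pairing with the splice site, and Snrpa1 and Snrpb2, for a pair of U2 proteins that bind each other, rose by 0.52, 0.71 and 0.50 and fell by 0.48, 0.59 and 0.57 on the log2 scale in the 2 comparisons.

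SF3A and SF3B are the parts of the U2 snRNP that clamp it onto the branch point. Under high-fat diet 2 of 3 SF3A genes and 4 of 6 SF3B genes rose, against 15.2% of all tested genes. In berberine against high-fat diet 1 and 4 of them fell, against 14.9% of all tested genes. Sf3a3 had 46.1, 41.8 and 46.6 CPM in chow, 70.2, 72.0 and 69.8 in high-fat diet and 57.5, 48.0 and 47.5 in berberine libraries. Its high-fat diet values were close to each other and above all others, with log2 fold changes of 0.66 ± 0.11 (edgeR adjusted p = 0.00368) and -0.47 ± 0.11 (adjusted p = 0.0153). Sf3a1 had 83.2, 76.0 and 64.8, 97.8, 119 and 96.4 and 112, 95.9 and 90.5 CPM, so that the berberine values overlapped those of high-fat diet and lay above those of chow. It rose by 0.48 ± 0.14 under high-fat diet (edgeR adjusted p = 0.0323), and berberine against high-fat diet gave -0.07 ± 0.14 (adjusted p = 0.737). Sf3a2, the remaining SF3A subunit, was not called in either comparison (0.53 and -0.41 on the log2 scale).

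Among SF3B genes, Sf3b4 had 51.6, 42.7 and 53.0 CPM in chow, 86.8, 89.9 and 75.1 in high-fat diet and 61.9, 45.1 and 50.1 in berberine libraries, and Sf3b3 had 122, 109.6 and 103, 170.4, 204 and 173 and 145, 126 and 111 CPM. Neither gene's high-fat diet values overlapped with those of another group. Sf3b4 rose by 0.77 ± 0.15 (edgeR adjusted p = 0.00647) and Sf3b3 by 0.71 ± 0.14 (adjusted p = 0.00554), and in berberine against high-fat diet they gave -0.68 ± 0.15 and -0.52 ± 0.14 (adjusted p = 0.0114 and 0.0203). The small subunits Sf3b5 and Sf3b6 rose by 0.66 and 0.39 and fell by 0.54 and 0.43 on the log2 scale. The 2 most abundant SF3B genes per length were not called. Sf3b2, the highest Sf3 gene per length, gave 0.18 ± 0.10 and -0.17 ± 0.10 (edgeR adjusted p = 0.212 and 0.235). Sf3b1, which touches the branch point and is named after its values were seen, had 471, 418 and 465, 268, 384 and 427 and 425, 323 and 439 CPM, with log2 fold changes of -0.33 ± 0.19 and 0.14 ± 0.19 (adjusted p = 0.229 and 0.618) and groups that overlapped.

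**Figure D4:**
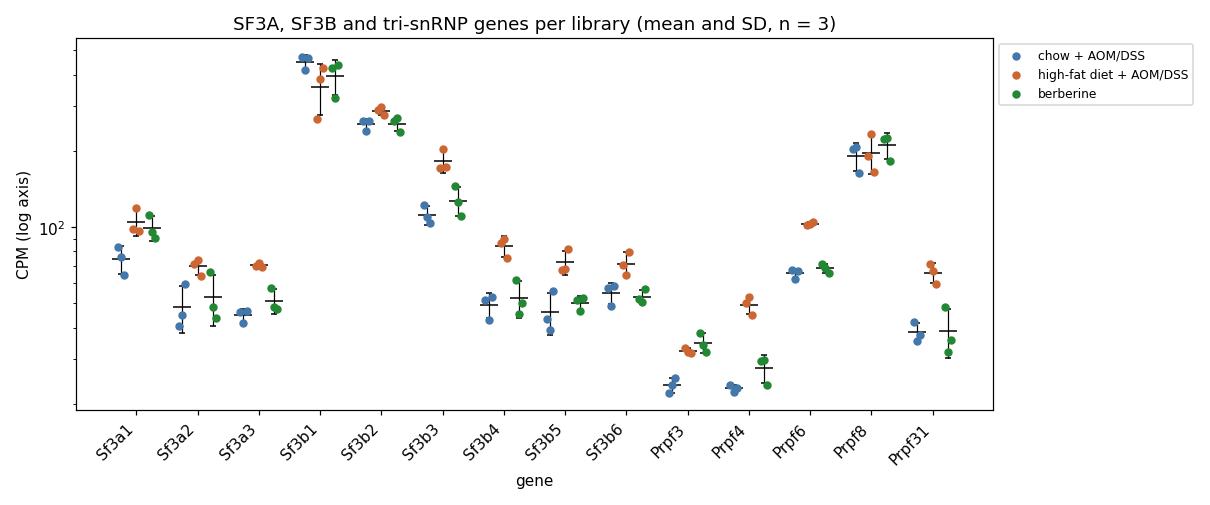
CPM of the SF3A, SF3B and tri-snRNP genes in each library on a log axis, with group means and SD (n = 3). The high-fat diet points lie above the chow points for 12 of the 14 genes, the exceptions being Sf3b1 and Prpf8, whose points of the 3 groups overlap.

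The tri-snRNP brings U4, U6 and U5 to the assembling spliceosome. Under high-fat diet 4 of its 5 Prpf genes rose (80%, against 15.2% of all tested genes). Prpf4, a U4/U6 protein (GRCm38 chromosome 4, 62408797 to 62426990, plus strand), had 23.8, 22.2 and 23.0 CPM in chow, 49.9, 52.6 and 44.8 in high-fat diet and 29.4, 29.7 and 23.6 in berberine libraries. With log2 fold changes of 1.09 ± 0.13 (edgeR adjusted p = 0.000714) and -0.83 ± 0.13 (adjusted p = 0.00245) it changed most among the Prpf genes in both comparisons. Prpf6, the bridge between U5 and U4/U6, had 67.4, 62.3 and 66.9, 102, 102 and 104 and 71.4, 68.7 and 65.6 CPM. Its values were tight within each group, and it gave 0.65 ± 0.09 (edgeR adjusted p = 0.00154) and -0.58 ± 0.09 (adjusted p = 0.00248). Prpf31, a U4/U6 protein whose loss causes retinal degeneration in people, rose by 0.78 ± 0.17 and gave -0.76 ± 0.17 in the second comparison (edgeR adjusted p = 0.00913 and 0.0103).

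Prpf3 and Prpf8 did not show that order of groups. Prpf3, a partner of Prpf4 on U4/U6, had 22.0, 23.8 and 25.3 CPM in chow, 33.3, 32.0 and 31.7 in high-fat diet and 38.2, 34.2 and 32.1 in berberine libraries. The chow libraries were the lowest and the berberine libraries overlapped those of high-fat diet, so that Prpf3 rose by 0.45 ± 0.12 against chow (edgeR adjusted p = 0.0210) while berberine against high-fat diet gave 0.11 ± 0.12 (adjusted p = 0.515). Prpf8, the scaffold of the catalytic centre and the highest Prpf gene per length, had 204, 207 and 163, 191, 233 and 165 and 224, 226 and 182 CPM. Its groups overlapped and its log2 fold changes were 0.04 ± 0.16 and 0.10 ± 0.16 (edgeR adjusted p = 0.890 and 0.669).

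Of the 8 Prpf genes outside the tri-snRNP 2 rose under high-fat diet (25%, against 15.2% of all tested genes). The same number fell in berberine against high-fat diet (25%, against 14.9%). Prpf19, the ubiquitin ligase that names the Prp19 complex, had 92.6, 84.0 and 90.2 CPM in chow, 155, 168 and 149 in high-fat diet and 120.2, 90.9 and 88.1 in berberine libraries. The lowest high-fat diet value stood above the highest of the other groups, and the log2 fold changes were 0.82 ± 0.14 (edgeR adjusted p = 0.00299) and -0.66 ± 0.14 (adjusted p = 0.00782). Prpf38a, which joins the complex before activation, rose by 0.69 and fell by 0.57 on the log2 scale. The other 6, among them Prpf39 and Prpf18, were not called in either comparison. The log2 fold changes against chow were -0.18 ± 0.21 for Prpf39 and 0.12 ± 0.10 for Prpf18 (edgeR adjusted p = 0.552 and 0.415).

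SR proteins bind exonic enhancers through RNA recognition motifs and recruit the machinery through their arginine and serine rich tails. Of the 10 tested, Srsf3, Srsf6, Srsf7, Srsf9 and Srsf10 rose under high-fat diet, and Srsf3, Srsf6 and Srsf9 fell in berberine against high-fat diet. These were 50% and 30% of the tested SR genes, against 15.2% and 14.9% of all tested genes. Srsf3, one of the smallest SR proteins, had 254, 184 and 242 CPM in chow, 318, 359 and 363 in high-fat diet and 277, 222 and 227 in berberine libraries, and Srsf9 had 45.8, 42.3 and 55.5, 84.8, 59.8 and 83.4 and 55.8, 50.8 and 54.4 CPM. The high-fat diet values of both lay above all others. Srsf3 gave log2 fold changes of 0.61 ± 0.15 and -0.52 ± 0.15 (edgeR adjusted p = 0.0169 and 0.0332), and Srsf9 gave 0.67 ± 0.16 and -0.50 ± 0.16 (adjusted p = 0.0159 and 0.0477).

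Srsf6 and Srsf7 rose by smaller steps. Srsf6 had 295, 297 and 318 CPM in chow, 375, 386 and 435 in high-fat diet and 316, 280.1 and 316 in berberine libraries, with changes of 0.39 ± 0.11 and -0.39 ± 0.11 (edgeR adjusted p = 0.0268 and 0.0287). Srsf7 had 95.7, 98.7 and 119, 140.4, 145 and 176 and 131, 126 and 118 CPM and rose by 0.56 ± 0.13 (edgeR adjusted p = 0.0135), while berberine against high-fat diet gave -0.30 ± 0.13 (adjusted p = 0.119). The berberine values of Srsf7 overlapped those of chow and lay under those of high-fat diet. The most abundant SR gene per length, Srsf2, had 384, 375 and 412, 400.4, 477 and 500.0 and 477, 335 and 421 CPM and was not called (0.23 ± 0.15 and -0.16 ± 0.15). Srsf5 had 449, 383 and 538, 332, 401 and 461 and 329.5, 321 and 355 CPM. Its berberine values lay under those of chow and overlapped those of high-fat diet. It was not called in any comparison (-0.20 ± 0.17 against chow and -0.25 ± 0.17 for berberine against high-fat diet). Srsf1, the founding SR protein, gave 0.26 ± 0.14 and -0.10 ± 0.14, also without a call.

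The hnRNPs coat nascent transcripts, and their A and B group held the largest changes. In it 3 of 5 genes rose under high-fat diet (60%, against 15.2% of all tested genes). In berberine against high-fat diet 3 of 5 fell (60%, against 14.9%). Hnrnpab (GRCm38 chromosome 11, 51600100 to 51606847, minus strand), the most abundant of all 79 genes per length, had 429, 412 and 379.8 CPM in chow, 807, 892 and 911 in high-fat diet and 511, 403 and 438 in berberine libraries. The lowest high-fat diet value, 807 CPM, stood above the highest of the other groups, 511 CPM, and the log2 fold changes were 1.10 ± 0.13 (edgeR adjusted p = 0.000714) and -0.95 ± 0.13 (adjusted p = 0.00141). Hnrnpa1, the classic antagonist of Srsf1, had 339, 309.7 and 309, 479, 519.9 and 515 and 349, 296 and 260.3 CPM, and Hnrnpa0, a single-exon relative that also binds AU-rich elements, had 213, 179.8 and 229.6, 329, 336 and 359 and 218, 204 and 206 CPM. In both genes the high-fat diet libraries were the highest and the others overlapped. Hnrnpa1 gave 0.66 ± 0.13 and -0.74 ± 0.13 (edgeR adjusted p = 0.00635 and 0.00400), and Hnrnpa0 gave 0.72 ± 0.12 and -0.71 ± 0.12 (adjusted p = 0.00274 and 0.00297).

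Hnrnpa2b1 and Hnrnpa3 of that group were not called. Hnrnpa2b1, known from RNA transport granules, gave 0.28 ± 0.12 and -0.18 ± 0.12 (edgeR adjusted p = 0.111 and 0.275). Hnrnpa3, named after its values were seen, varied within groups, at 106, 30.9 and 37.0 CPM in chow, 134, 38.9 and 119 in high-fat diet and 32.5, 34.1 and 59.0 in berberine libraries. Its groups overlapped, its log2 fold changes were 0.74 ± 0.57 and -1.22 ± 0.58 (adjusted p = 0.360 and 0.143), and its exons overlap those of another annotated gene on the same strand.

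Outside the A and B group, 5 of 15 Hnrnp genes rose under high-fat diet, against 15.2% of all tested genes. These were Hnrnpc, Hnrnph1, Hnrnph2, Hnrnpr and Hnrnpu. Hnrnpr, for an hnRNP of the Syncrip type, had 97.6, 89.2 and 99.3 CPM in chow, 126, 124 and 124 in high-fat diet and 69.8, 85.3 and 71.5 in berberine libraries. The berberine libraries were the lowest of the 9, with changes of 0.39 ± 0.11 (edgeR adjusted p = 0.0271) and -0.72 ± 0.11 (adjusted p = 0.00206). Hnrnph1, which binds runs of G, had 171, 198 and 215, 263, 254 and 285 and 225, 201 and 208 CPM, and gave 0.46 ± 0.12 and -0.34 ± 0.12 (edgeR adjusted p = 0.0187 and 0.0590). Hnrnpk, a poly(C) binder, was the other gene that fell in the second comparison, by 0.44 on the log2 scale (adjusted p = 0.0139), with 0.27 ± 0.10 against chow (adjusted p = 0.0838). Hnrnpd, known as AUF1 for its part in mRNA decay, had 221, 197 and 214, 189, 219 and 194 and 186, 129 and 137 CPM and was not called in any comparison (-0.07 ± 0.15 and -0.42 ± 0.15). Hnrnpd, Hnrnpdl and Hnrnpul1 were the 3 Hnrnp genes with a negative estimate against chow, the lowest at -0.22.

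Lsm proteins form a ring that binds U6 RNA in the nucleus (Lsm2 to Lsm8) and a ring with Lsm1 in place of Lsm8 that serves mRNA decay in the cytoplasm. Of the 8 ring genes 3 rose under high-fat diet (37.5%, against 15.2% of all tested genes). In berberine against high-fat diet 4 of them fell (50%, against 14.9%). Lsm4, shared by both rings and the highest Lsm gene per length, had 65.8, 52.1 and 57.6 CPM in chow, 96.2, 109 and 136 in high-fat diet and 56.2, 54.9 and 63.9 in berberine libraries. All high-fat diet values lay above the others, and the log2 fold changes were 0.96 ± 0.16 and -0.96 ± 0.16 (edgeR adjusted p = 0.00280 and 0.00278). Lsm6 had 33.4, 30.5 and 30.5, 47.3, 43.8 and 47.2 and 36.3, 32.6 and 36.0 CPM, with 0.55 ± 0.11 and -0.40 ± 0.11 (edgeR adjusted p = 0.00579 and 0.0225), and Lsm2 had 14.0, 15.2 and 13.5, 22.7, 26.0 and 19.3 and 18.1, 12.7 and 13.9 CPM, with 0.67 ± 0.19 and -0.60 ± 0.19 (adjusted p = 0.0254 and 0.0393). Lsm2 and Lsm6 were also highest in the high-fat diet libraries.

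Lsm8, which makes the ring nuclear, and Lsm1, which makes it cytoplasmic, both had positive estimates against chow. Lsm8 had 28.3, 32.8 and 30.0 CPM in chow, 46.7, 34.7 and 49.7 in high-fat diet and 29.5, 22.0 and 33.8 in berberine libraries, with 0.53 ± 0.19 against chow (edgeR adjusted p = 0.0677) and a fall of 0.62 in the second comparison (adjusted p = 0.0401). Lsm1 gave 0.31 ± 0.17 and -0.41 ± 0.17 (edgeR adjusted p = 0.202 and 0.109), without a call. Lsm5 had 9.65, 5.19 and 11.4, 14.0, 14.0 and 18.9 and 11.4, 12.3 and 12.3 CPM, and its 0.84 ± 0.29 against chow missed the threshold (adjusted p = 0.0535). The count of ring genes that rose was 3 by edgeR, 5 by DESeq2 and 6 by limma on log2(FPKM + 1). Of all 14506 tested genes these called 2199, 2626 and 2956 higher, in the same order.

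Lsm proteins outside these rings showed no call. Lsm10 and Lsm11 take the place of SmD1 and SmD2 in the ring of the U7 snRNP, which trims histone mRNA, and gave 0.73 ± 0.41 and -0.14 ± 0.20 against chow. Snrpd1 and Snrpd2 rose as given above. The Lsm10 estimate was above the 0.64 of Snrpd2 but had a wider SE, and differences between these genes were not tested. Of Lsm10, Lsm11, Lsm12, Lsm14a and Lsm14b none passed by edgeR, DESeq2 or limma, or at an unadjusted p under 0.05, in any comparison of high-fat diet. Lsm12, named after its values were seen, had 44.1, 22.7 and 9.82 CPM in chow, 67.8, 20.4 and 62.4 in high-fat diet and 49.3, 45.3 and 10.7 in berberine libraries, so that replicates within a group differed more than the groups did.

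**Figure D5:**
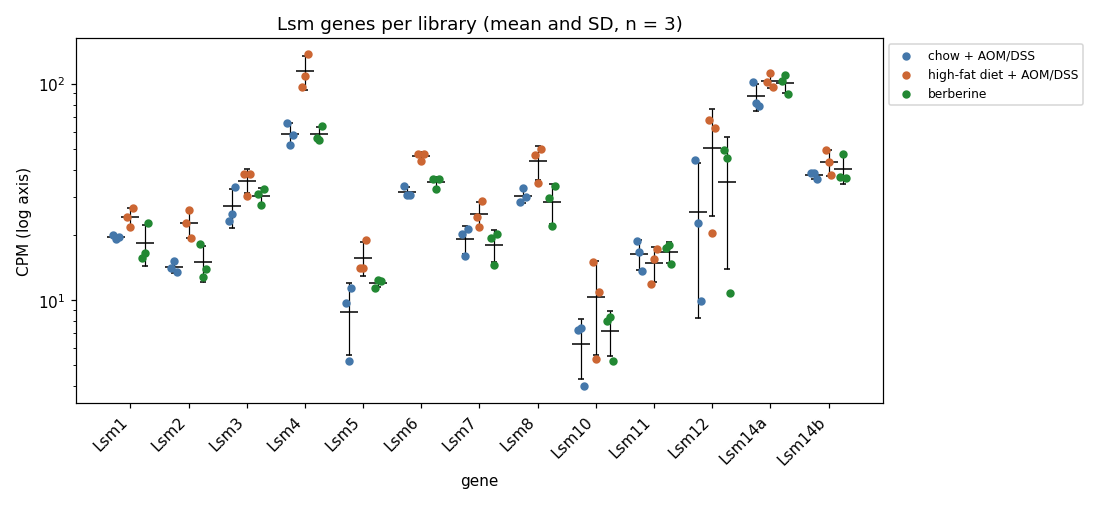
CPM of the 13 Lsm genes in each library on a log axis, with group means and SD (n = 3). Lsm4 and Lsm6 show high-fat diet points clear of the other groups. Those of Lsm2, Lsm5 and Lsm8 also lie above both other groups, by less. The points of Lsm10, Lsm11, Lsm12, Lsm14a and Lsm14b overlap between groups.

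The berberine group was last compared with chow. No splicing gene was called by edgeR, against 0.0414% of all tested genes called higher and 0.00689% lower, or 0.0483% in either direction. The log2 fold changes lay between -0.50 and 0.56, with a median of 0.09. At an unadjusted p under 0.05 (edgeR) there were 7 of the 78 genes, 3 higher and 4 lower. Over all 14506 tested genes there were 1579, 727 higher and 852 lower, so the members were near the background. Groups did not overlap for 14 of 78 genes, against 18.1% of all tested genes. DESeq2 called Prpf3 higher by 0.55 on the log2 scale (adjusted p = 0.00106), which edgeR gave as 0.56 ± 0.12 (adjusted p = 0.231), and the other analyses called none. Over all 14506 tested genes DESeq2 called 179 higher and 205 lower in this comparison, so 1 of 78 members was near the background. The smallest edgeR p of a family belonged to Sf3a1 and Srsf5 in theirs, at 0.41 ± 0.14 and -0.45 ± 0.17 (adjusted p = 0.388 and 0.391). A p that misses the threshold does not show that the groups were alike: for Snrpd3 the estimate was 0.20 ± 0.12 and for Hnrnpab 0.15 ± 0.13.

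Partner genes outside these families were read as 5 lists. Of 12 genes of the SMN complex and Sm protein assembly, which load Sm rings onto U RNAs, 5 rose under high-fat diet (41.7%, against 15.2% of all tested genes) and 5 fell in berberine against high-fat diet (41.7%, against 14.9%), with medians of 0.76 and -0.67 on the log2 scale. Strap, an SMN-associated WD repeat protein, stood at 107 ± 6.72, 205 ± 8.74 and 113 ± 7.67 CPM (mean ± SD, n = 3) in chow, high-fat diet and berberine, with log2 fold changes of 0.94 ± 0.10 and -0.86 ± 0.10 (edgeR adjusted p = 0.000464 and 0.000646). Prmt5, which methylates Sm proteins, gave 0.89 ± 0.13 and -0.74 ± 0.13, and Smn1 itself 0.98 ± 0.20 and -0.90 ± 0.20, all 4 called. Of 47 other spliceosome subunits 11 rose (23.4%, against 15.2% of all tested genes) and 0 fell (against 16.6%) under high-fat diet, with a median of 0.31. In berberine against high-fat diet 8 of them fell (17%, near the 14.9% of all tested genes) and 1 rose (2.13%, against 15.8%), with a median of -0.18. Among them Bcas2 and Snrnp40, of the Prp19 complex and the U5 snRNP, rose by 0.65 and 0.61 and fell by 0.67 and 0.62, and Eftud2, the U5 GTPase, rose by 0.71 and fell by 0.75 on the log2 scale. Usp39, a tri-snRNP protein, rose by 0.72 ± 0.14 (edgeR adjusted p = 0.00563).

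Among the regulators, 2 lists were read. Of 6 SR protein kinases Srpk1 rose by 0.54 and Clk1 fell by 0.55 under high-fat diet on the log2 scale (edgeR adjusted p = 0.0179 and 0.0496), and Srpk2 fell by 0.56 in berberine against high-fat diet (adjusted p = 0.00553). Each of these directions thus held 16.7% of the list, against 15.2%, 16.6% and 14.9% of all tested genes. Of the 2 kinase calls against chow, 1 had groups that did not overlap. DESeq2 also called 1 kinase lower there, but limma on log2(FPKM + 1) called 0 lower. Of 31 tested genes among 33 other splicing regulators 5 rose under high-fat diet (16.1%, near the 15.2% of all tested genes) and 1 fell (3.23%, against 16.6%). In the second comparison 6 fell (19.4%, against 14.9%) and 1 rose (3.23%, against 15.8%), and the medians were 0.05 and -0.09. Khdrbs1, the signal-responsive regulator Sam68, rose by 0.998 and fell by 0.66, the epithelial regulator Esrp2 rose by 0.65 and fell by 0.68, and Syncrip rose by 0.77 and fell by 0.64 on the log2 scale. None of 9 Lsm partners in mRNA decay, such as the decapping enzyme gene Dcp2, was called by edgeR or DESeq2 or had an unadjusted p under 0.05 in the comparisons with high-fat diet, and limma called 1 higher.

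Because most members were highest in the same libraries, their promoters were read for 6 short motifs on both strands, from 250 bases before to 50 after the start, in the RefSeq windows of GRCm38.p6. A window was found for 67 of the 79 genes. The word CCGGAAG, a core of sites bound by ETS factors, occurred in 21 of the 67 (31.3%), against 19.6% of 10035 tested genes and 9.93% of all 27025 genes with a window. It occurred in 12 of 34 members that rose under high-fat diet (35.3%) and in 9 of 32 that were tested and did not rise (28.1%). The E-box CACGTG was in 13.4% of members and 11.6% of tested genes, but in fewer of the members that rose (3 of 34, 8.82%) than of the others (6 of 32, 18.8%). The GC box GGGCGG was in 71.6% of members and 67.6% of tested genes, and the CCAAT box CCAAT in 50.7% and 42.4%. The TATA box TATAAA was in 10.4% and 9.37%, and the palindromic NRF1 motif in 1.49% and 2.17%. CCGGAAG had the largest gap of the 6 between members and tested genes, and was chosen for printing after these shares were seen. The GC box and the NRF1 motif can share end bases with each other and with every other word but the TATA box, the TATA box can with the CCAAT box, and no other pair can overlap. These counts were not tested, and a match describes letters and not a bound site. Stretches of 4 members that rose are printed 5' to 3' on the gene's strand to show the word, or its reverse complement CTTCCGG, in capitals.
Snrpc (chr17:27840023-27840079, plus strand): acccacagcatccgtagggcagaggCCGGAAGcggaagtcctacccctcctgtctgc
Snrpg (chr6:86371370-86371426, plus strand): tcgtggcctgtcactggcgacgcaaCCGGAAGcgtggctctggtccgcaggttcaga
Sf3a3 (chr4:124714746-124714802, plus strand): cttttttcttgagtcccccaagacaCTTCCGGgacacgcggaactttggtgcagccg
Prpf19 (chr19:10895138-10895194, plus strand): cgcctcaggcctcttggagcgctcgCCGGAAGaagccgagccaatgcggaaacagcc
The last capital lies at -33, -139, -84 and -62 relative to the start of the gene, in that order.

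Exons of 28 of the 79 genes overlap those of another annotated gene, 7 of them on the same strand, such as Snrpn with Snurf. Libraries were stranded per the labels' protocols, but how strand was used in counting is not given in the sources used here. Of the 40 genes called in high-fat diet against chow 23 were called under all 18 alternative analyses, and of the 34 called in berberine against high-fat diet 15 were. The 17 other calls against chow each failed without at least 1 library: Snrpn, Snrpf, Snrpc, Snrpb2, Srsf3, Srsf6, Srsf9, Srsf10, Sf3a1, Sf3b6, Hnrnpc, Hnrnph1, Hnrnph2, Hnrnpr, Hnrnpu, Prpf3 and Lsm2, with an adjusted p of at most 0.136 (Sf3b6). So did 19 calls of berberine against high-fat diet: Snrpa, Snrpa1, Snrpb, Snrpc, Snrpe, Snrpf, Snrpg, Srsf3, Srsf6, Srsf9, Sf3a3, Sf3b3, Sf3b5, Sf3b6, Hnrnpk, Prpf38a, Lsm2, Lsm6 and Lsm8, with an adjusted p of at most 0.156 (Srsf9). No member called in either comparison changed sign under an alternative.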

How the data were processed

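Stranded poly(A) libraries with molecular identifiers were made from colonic RNA, per the labels' protocols. The authors deposited an estimated count and an FPKM value per gene and library, per the file headers. The submitters' processing notes name GRCm38, StringTie 1.3.4d, HISAT2 2.0.4, cutadapt 1.9, UMI-tools, edgeR and DESeq2, without their roles. The deposited estimated counts were whole numbers that pile up at multiples of 4 (34.9% of those from 1 to 40), so they are not reads counted one by one, and deposited FPKM values are 0.0001 where the count is 0.

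Counts of all 9 libraries were fitted with edgeR 4.0.16 (quasi-likelihood, TMM scaling) in R 4.3.3, over the 14506 genes that averaged 1 FPKM or more, and p-values were adjusted over all of them by Benjamini-Hochberg. Rose, fell and called mean an adjusted p under 0.05, and a gene that was not called may still have changed. CPM are TMM-scaled, and fold changes are log2 ± SE. The fit was tested on simulated counts. Alternatives used limma 3.58.1 on log2(FPKM + 1) or log2(FPKM + 0.1), DESeq2 1.42.0, other scaling and filters, counts divided by 4, a replicate block and leaving out each library. The members and the partner and marker lists were chosen with earlier results of these data known. Named per family were the highest gene by FPKM and up to 4 called genes with non-overlapping groups and the smallest p per comparison (or the smallest p where none passed). Partner lists gave the 3 called genes with the smallest p. Other genes were chosen after their values were seen. Same-numbered libraries did not deviate together (correlations from -0.10 to 0.16). Some genes and sequences are not reported here. Promoter windows are from RefSeq (GRCm38.p6) and transcripts from GENCODE.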

Additional observations from a re-analysis of the deposited data

How the results depend on the processing

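The number of splicing genes higher under high-fat diet than chow, 39 as reported, was 48 with library totals and with DESeq2, 42 with filterByExpr, 35 with no filter, 49 with limma at either pseudocount, 33 from only the groups compared, and 29 to 40 when 1 library was left out. Of all 14506 tested genes 2199 were higher as reported, 2807 with library totals and 2626 with DESeq2. Limma called 2956 (FPKM + 1) and 2902 (FPKM + 0.1) higher, and only the groups compared gave 1780. With filterByExpr 2632 of 22361 genes were higher, and with no filter 2171 of 34440. The number of splicing genes lower was 1 (Snrpn) and became 0 with library totals, filterByExpr, no filter, only the groups compared and the replicate block, and 0 to 1 when 1 library was left out. The number of splicing genes lower in berberine than high-fat diet, 34 as reported, was 41 with library totals, 37 with DESeq2, 20 with no filter and 15 to 34 when 1 library was left out, and the number higher, 0 as reported, was 0 to 1 then, the 1 being Snrpn without high-fat diet replicate 1. Of all 14506 tested genes 2168 were lower in berberine than high-fat diet as reported, 2689 with library totals and 2693 with DESeq2. With no filter 1968 of 34440 genes were lower. In berberine against chow only DESeq2 called a member, 1 higher, where it called 179 of all 14506 tested genes higher. With the replicate block 40 rose under high-fat diet and 34 fell in berberine against high-fat diet, although the numbers did not pair the libraries. In that block the Snrpn change was -1.34 (adjusted p = 0.0683). By family, Hnrnp genes lower in berberine than high-fat diet numbered 5 as reported, 10 with library totals and with limma at either pseudocount and 8 with DESeq2. With no filter the genes lower there were 7 in place of 12 Snrp, 3 in place of 5 Sf3, 0 in place of 3 Srsf and 1 in place of 4 Lsm genes. Lsm genes higher under high-fat diet numbered 3 as reported, 5 with library totals and DESeq2 and 6 with limma. From only the groups compared 3 in place of 5 Srsf genes were higher under high-fat diet, and 2 in place of 4 Lsm genes lower in berberine. Over the named genes, 1767 values stayed on the same side of the threshold, 90 lost the call and 33 gained one. None that was called in the main or the alternative analysis reversed in direction. For values called in neither, direction was not compared. The cause of these shifts was not tested. With library totals the median of all tested genes moved to 0.13 and -0.12 in the comparisons with high-fat diet. Groups of 3 libraries limit the precision, and with counts divided by 4 the 39 higher and 34 lower stayed the same in number.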
